A study of Mus musculus with 6 samples.

Results

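The Iroquois homeobox genes Irx1, Irx2, Irx3, Irx4, Irx5 and Irx6 were followed by name through the RNA of fetal mouse hearts at embryonic day 18.5 (E18.5) and embryonic day 16.5 (E16.5). They are 6 of the 31529 genes of the deposited table, and all 6 passed the filter on low counts. Both stages were represented by 3 libraries of polyadenylated RNA from hearts of wild-type mice of the outbred ICR stock, in a series on the metabolism of fetal organs. The labels name no genetic change or treatment for either stage. The sources used here give neither the number of hearts in a library nor their litters, so p-values measure the spread between these libraries.

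Iroquois proteins are transcription factors with a homeodomain of the TALE class, which carries 3 additional residues in the loop between its first helices. Mammals hold them in a pair of clusters of 3 genes each, Irx1 with Irx2 and Irx4, and Irx3 with Irx5 and Irx6. In the mouse heart Irx4 is a marker of ventricular muscle, Irx3 acts in the ventricular conduction system, and Irx5 represses the potassium channel gene Kcnd2 across the ventricular wall. Irx1 and Irx2 are known from the ventricular septum, and Irx3, Irx4 and Irx5 also act together in ventricular muscle. Several Iroquois genes are also expressed in the epithelium of the fetal lung.

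The stretch of DNA that encodes the recognition helix of the homeodomain, the part that reads DNA, is shown for all 6 genes because it shows how alike the members are and how they can still be told apart by reads. Each line gives 60 bases of coding sequence from GENCODE release M21 on GRCm38, 5′ to 3′ on the gene's own strand, and capitals mark the bases that differ from Irx4.
Irx1: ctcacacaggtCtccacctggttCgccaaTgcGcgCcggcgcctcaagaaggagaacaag
Irx2: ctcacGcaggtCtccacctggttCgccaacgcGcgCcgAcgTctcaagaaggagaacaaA
Irx3: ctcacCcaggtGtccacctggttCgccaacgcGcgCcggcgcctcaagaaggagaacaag
Irx4: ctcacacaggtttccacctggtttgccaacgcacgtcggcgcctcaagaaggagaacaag
Irx5: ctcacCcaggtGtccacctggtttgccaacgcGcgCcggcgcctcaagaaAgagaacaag
Irx6: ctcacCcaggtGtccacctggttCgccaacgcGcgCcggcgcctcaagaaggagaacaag
The stretches lie at chr13:71959992-71960051 on the minus strand for Irx1, chr13:72630793-72630852 on the plus strand for Irx2, chr13:73267652-73267711 on the plus strand for Irx4, chr8:91800496-91800555 on the minus strand for Irx3, chr8:92359756-92359815 on the plus strand for Irx5 and chr8:92677365-92677424 on the plus strand for Irx6. Irx2 differed from Irx4 at 8 bases and each of the other 4 genes at 5. Every one of these differences was at the third base of a codon, and 0 of them changed the encoded residue. Over the 63 codons of the homeobox, Irx2 and Irx5 shared 91.0% of bases and 100% of residues, and Irx1 and Irx3 shared 89.4% of bases and 98.4% of residues. Irx4 and Irx6 shared 92.1% of residues.

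Such likeness matters for the values where a stretch is identical over a good part of a read of 150 bases. The longest run shared between members was 88 bases of Irx3 and Irx6 that includes the helix, which is why their lines above are the same. It lies at chr8:91800491-91800578 in Irx3 and chr8:92677342-92677429 in Irx6.
Irx3 and Irx6: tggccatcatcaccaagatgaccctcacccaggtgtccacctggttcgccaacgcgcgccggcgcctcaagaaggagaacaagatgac
Irx2 and Irx5: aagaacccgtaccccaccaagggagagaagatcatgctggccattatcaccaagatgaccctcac
The second run is 65 bases long, at chr13:72630733-72630797 in Irx2 and chr8:92359696-92359760 in Irx5. In stretches of 50 bases, 16 of 3324 in Irx2 and 17 of 3078 in Irx5 also occurred in another gene. Of 2762 stretches in Irx3, 115 did, of which 75 were in the antisense gene Irx3os and 39 in Irx6. Of 3368 stretches in Irx6, 119 did, of which 80 were in Gm45505 and 39 in Irx3. Irx1 and Irx4 had 0 shared stretches of 2585 and 2603. Since Irx6 was far below Irx3, reads placed wrongly between them would weigh more on Irx6, and its low values are uncertain to that extent.

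The 6 libraries held between 61443414 and 77237333 estimated counts. Genes of the mitochondrial chromosome took 33.5%, 26.7% and 25.2% of them in E18.5 replicates 1, 2 and 3, and 41.4%, 19.9% and 35.0% in E16.5 replicates 1, 2 and 3. The log2 CPM of E16.5 replicate 2 correlated at 0.953 to 0.964 with E18.5 libraries and at 0.946 and 0.947 with its own stage. E16.5 replicates 1 and 3 correlated at 0.948 with each other and at 0.937 to 0.948 with E18.5 libraries. Ventricular muscle genes such as Myl2 and Myh7 were abundant in all 6 libraries, and the whole list of 8 summed to 5220 to 5866 FPKM at E18.5 and 4113 to 6109 FPKM at E16.5. FPKM, fragments per kilobase of transcript scaled to a library's fragments, is used here for levels between genes. CPM, a count scaled to a common library size after TMM scaling, is used for differences between stages, because FPKM also counts the mitochondrial share in its scale.

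Irx4, the ventricular marker, was far above the other members. It stood at 44.3, 46.8 and 53.0 FPKM in E18.5 replicates 1, 2 and 3, and at 52.9, 43.2 and 48.6 FPKM in E16.5 replicates 1, 2 and 3. The stages overlapped fully, and the mean was 48.1 ± 4.49 FPKM at E18.5 and 48.2 ± 4.84 FPKM at E16.5 (SD, n = 3 each). Irx4 ranked 551st by mean FPKM among all 31529 genes and lay at percentile 97.2 of the 19959 genes tested.

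Irx2, Irx5 and Irx3 formed a middle tier. Irx2 stood at 8.47, 9.42 and 11.0 FPKM in the E18.5 libraries and at 9.49, 14.8 and 11.1 FPKM in the E16.5 libraries. Irx5 stood at 8.54, 7.57 and 8.42 FPKM in the E18.5 libraries and at 7.84, 11.4 and 10.3 FPKM in the E16.5 libraries. The ratio of Irx2 to Irx5, the pair with identical homeodomains, was 0.993, 1.24 and 1.31 at E18.5 and 1.21, 1.29 and 1.08 at E16.5, so Irx2 was the higher in 5 of the 6 libraries. The mean log2 ratio was 0.23 ± 0.21 at E18.5 and 0.25 ± 0.13 at E16.5 (SD, n = 3 each). Irx3 was lower, at 5.13, 5.00 and 7.42 FPKM in the E18.5 libraries and 4.80, 8.16 and 5.50 FPKM in the E16.5 libraries. It was below Irx5 in all 6 libraries, with a ratio of 0.601 to 0.881 at E18.5 and 0.532 to 0.713 at E16.5.

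Irx1, the first gene of its cluster, was weak and variable. It stood at 1.01, 1.74 and 2.15 FPKM in E18.5 replicates 1, 2 and 3, and at 1.18, 3.18 and 1.43 FPKM in E16.5 replicates 1, 2 and 3. The highest value was in E16.5 replicate 2, above every E18.5 library, and the other E16.5 libraries lay within the E18.5 range. Irx6, known for weak expression in heart, was at 0.180, 0.0595 and 0.357 FPKM in the E18.5 libraries and at 0.246, 0.233 and 0.192 FPKM in the E16.5 libraries. Its values rested on 15 to 80 counts a library, and the lowest and the highest were both at E18.5. The 6 genes lay at percentiles 97.2 (Irx4), 85.5 (Irx2), 82.7 (Irx5), 74.7 (Irx3), 48.7 (Irx1) and 16.7 (Irx6) of all genes tested.

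**Figure D1:**
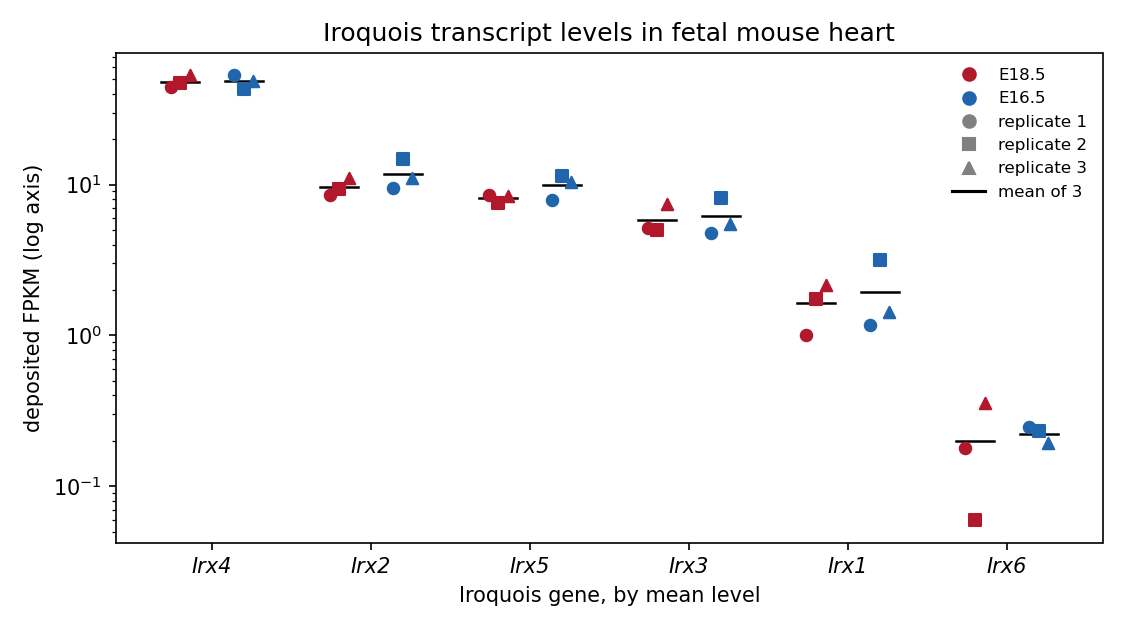
Deposited FPKM (log axis) of the 6 Iroquois genes, ordered by mean level, with 1 point for each library, the marker shape for its replicate number, and a bar for the mean of 3 libraries at E18.5 (red, left) and E16.5 (blue, right). Irx4 lies between 43.2 and 53.0 FPKM in the libraries of both stages, above Irx2, Irx5 and Irx3, and Irx6 stays below 0.4 FPKM in all 6.

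Irx4 made up most of the family's summed level in every library. It held 65.5%, 66.3% and 64.4% of the summed FPKM in E18.5 replicates 1, 2 and 3, and 69.2%, 53.4% and 63.0% in E16.5 replicates 1, 2 and 3. The low share at E16.5 was in replicate 2. In that library Irx2 held 18.2%, Irx5 14.1%, Irx3 10.1% and Irx1 3.93%, each its highest share in any of the 6 libraries. Shares are tied to each other, so a lower share of Irx4 goes with higher shares of the rest. In CPM only Irx1 was highest in that library. By that measure Irx2 (43.5) and Irx5 (38.5) were highest in E16.5 replicate 3, and Irx3 (20.2) in E18.5 replicate 3. The summed FPKM of the family itself was 67.7, 70.6 and 82.4 at E18.5 and 76.5, 81.0 and 77.2 at E16.5.

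The stage comparison asks whether Iroquois expression changed over the last days before birth. It found no member that passed the threshold, an adjusted p under 0.05 in edgeR's quasi-likelihood test across all genes. Of all genes tested, 0.15% were called in either direction and 0.0551% were called lower at E18.5. All 6 members had a fitted log2 change below 0, with a median of -0.29, whereas 50.2% of all genes tested had one below 0 and their median was -0.0019. For Irx1, Irx4 and Irx6 the sign turned when 1 library was left out, and for Irx4 also with the mitochondrial share in the fit. In RNA of whole hearts, fewer cells of a type and less RNA per cell cannot be told apart. At an unadjusted p under 0.05, Irx2 and Irx5 were lower, which is 2 of 6 members beside 4.7% of all genes tested. The same pair were the members whose libraries did not overlap between stages in CPM, beside 8.02% of all genes tested that were lower at E18.5 without overlap. No member was higher without overlap, beside 8.45% of all genes tested.

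Irx2, of the cluster on chromosome 13, had the smallest standard error of the 6. It stood at 32.6, 31.0 and 35.5 CPM in E18.5 replicates 1, 2 and 3, and at 42.3, 43.2 and 43.5 CPM in E16.5 replicates 1, 2 and 3. Every E18.5 library was below every E16.5 library, with means of 33.0 ± 2.31 CPM at E18.5 and 43.0 ± 0.618 CPM at E16.5 (SD, n = 3 each). The fitted log2 change was -0.38 ± 0.12 (SE), with a 95% interval of -0.65 to -0.11, an unadjusted p of 0.0108 and an adjusted p of 0.359 (edgeR). On log2(FPKM + 1) the stages overlapped, and an exact two-sided permutation test gave p = 0.2. On log2 CPM the same exact test gave p = 0.1, the smallest that 20 splits allow.

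Irx5, the repressor of Kcnd2 named above, stood at 31.2, 23.7 and 25.9 CPM in the E18.5 libraries and at 33.3, 31.9 and 38.5 CPM in the E16.5 libraries. The gap between the stages was narrow, with E18.5 replicate 1 just below E16.5 replicate 2. The means were 27.0 ± 3.86 CPM at E18.5 and 34.6 ± 3.49 CPM at E16.5 (SD, n = 3 each). The fitted log2 change was -0.36 ± 0.15 (SE, edgeR), with a 95% interval of -0.70 to -0.01 and an adjusted p of 0.503. On log2(FPKM + 1), where the stages overlapped, the exact permutation test gave p = 0.3, and on log2 CPM it gave p = 0.1.

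Irx4 had the widest scatter of the 4 most abundant members at E16.5 and the narrowest at E18.5. It stood at 135, 122 and 136 CPM in E18.5 replicates 1, 2 and 3, and at 187, 100 and 151 CPM in E16.5 replicates 1, 2 and 3. The E16.5 libraries lay on both sides of the E18.5 libraries, and their order was that of their mitochondrial shares of 41.4%, 19.9% and 35.0%. The E18.5 libraries did not follow such an order, since replicate 3 had the lowest share of that stage (25.2%) and its highest Irx4 value. The coefficient of variation was 5.90% at E18.5 and 29.8% at E16.5. The log2 change was -0.16 ± 0.22 (SE, edgeR), with a 95% interval of -0.65 to 0.34 and an adjusted p of 0.836. It was 0.03 with the mitochondrial share as a covariate, and 0.05 without E16.5 replicate 1.

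Irx3, of the conduction system, stood at 16.6, 13.9 and 20.2 CPM in the E18.5 libraries and at 18.02, 20.1 and 18.1 CPM in the E16.5 libraries. The E18.5 libraries held both the lowest and the highest value. Its log2 change was -0.15 ± 0.17 (SE, edgeR; 95% interval -0.54 to 0.24; adjusted p = 0.790). It was -0.03 without E18.5 replicate 2, -0.30 without E18.5 replicate 3 and -0.10 without E16.5 replicate 2.

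Irx1 stood at 3.09, 4.59 and 5.55 CPM in the E18.5 libraries and at 4.19, 7.43 and 4.49 CPM in the E16.5 libraries. Only E16.5 replicate 2 was outside the E18.5 range. Its log2 change of -0.28 ± 0.31 (SE, edgeR; 95% interval -0.997 to 0.43; adjusted p = 0.786) became 0.02 without that library. The same library was the highest of the 6 in Nkx2-1, Epcam and Cdh1, which are 3 of the 6 listed genes of lung and airway epithelium. That tissue also expresses Iroquois genes. The rest of the list, Sftpc, Sftpb and Scgb1a1, was highest in E18.5 replicate 3, at 63.8, 6.29 and 129 FPKM. Nkx2-1, the lung epithelial transcription factor, was at 0.233, 0.186 and 0.329 FPKM in the E18.5 libraries and 0.140, 0.807 and 0.254 FPKM in the E16.5 libraries. The adhesion gene Epcam was at 0.149 to 0.274 FPKM at E18.5 and at 0.173, 0.643 and 0.452 FPKM in E16.5 replicates 1, 2 and 3. In CPM, Epcam was at 1.27 in E16.5 replicate 2 and at 1.19 in E16.5 replicate 3. The whole list of 6 lung genes, led by Scgb1a1 and Sftpc, summed to 102 to 200 FPKM at E18.5 and to 104 to 162 FPKM at E16.5, and its sum was not highest in E16.5 replicate 2. The part of lung tissue in the Irx1 values was not tested. Markers of other cell types were also highest in E16.5 replicate 2, such as Hand1 (7.47 CPM), Pln (993 CPM) and Plvap (79.9 CPM). Others of the same lists, such as Myl2 and Cdh5, were highest in an E18.5 library. E16.5 replicate 2 also had the lowest mitochondrial share of the 6 libraries (19.9%).

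Irx6 had 49, 15 and 80 counts in the E18.5 libraries and 72, 57 and 54 counts in the E16.5 libraries. Its log2 change was -0.30 ± 0.62 (SE, edgeR; 95% interval -1.73 to 1.12; adjusted p = 0.892), and it was 0.13 without E18.5 replicate 2. The interval is too wide to read a direction at this depth. By the exact permutation test on log2(FPKM + 1), p was 0.8 for Irx1, 0.7 for Irx3, 1.0 for Irx4 and 0.7 for Irx6.

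**Figure D2:**
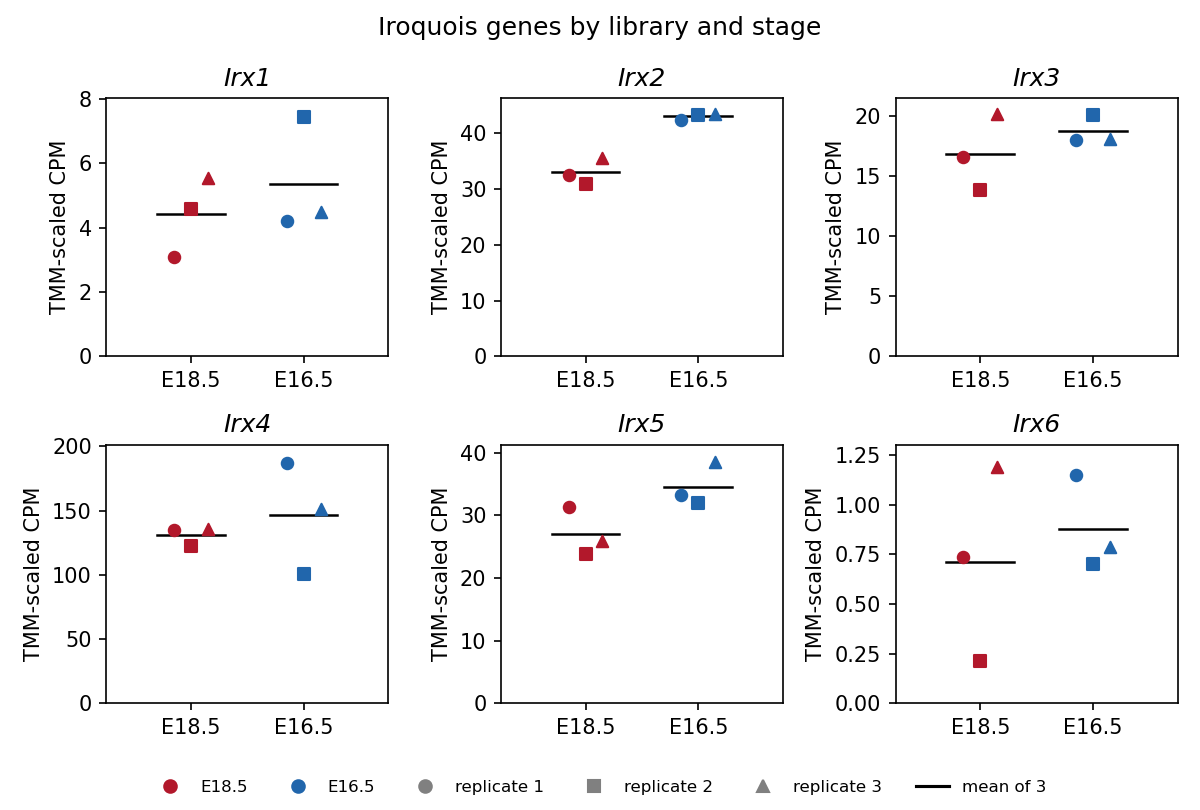
TMM-scaled CPM of each Iroquois gene, 1 panel per gene with axes from 0, showing the 3 libraries of E18.5 (red, left) and of E16.5 (blue, right) with their mean as a bar. In the Irx2 and Irx5 panels the stages do not overlap, and in the Irx4 panel the E16.5 libraries spread from 100 to 187 CPM around the E18.5 libraries.

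**Figure D3:**
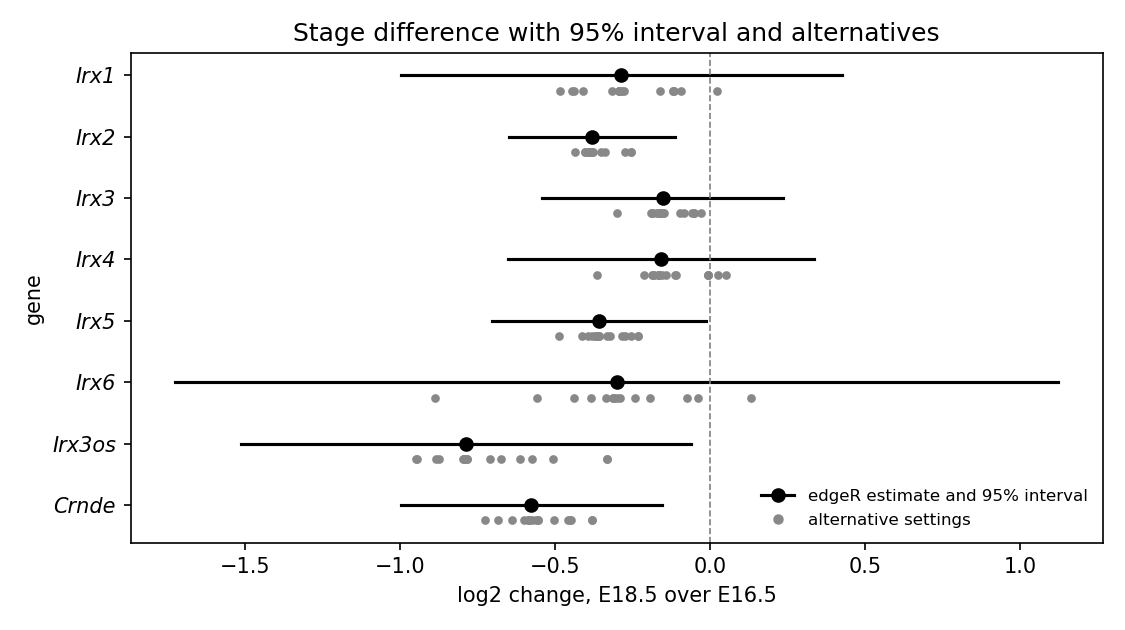
Log2 change at E18.5 over E16.5 for the 6 members and for the neighbouring genes Irx3os and Crnde, with edgeR's estimate (black point), its 95% interval (black line) and the estimates under other settings (grey points). The intervals of Irx2, Irx5, Irx3os and Crnde lie below 0, but no gene shown passed the threshold after adjustment over all genes tested.

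The members did not vary as 1 block over the libraries. Correlations are given only as a description, over 6 libraries that differed in depth and mitochondrial share. Pearson's r of log2 CPM was 0.84 for Irx3 with Irx6, 0.79 for Irx2 with Irx5 and 0.68 for Irx2 with Irx3. The first of these pairs lie in 1 cluster, with Irx5 between them, and share the longest identical run, and the second are the pair from different clusters with identical homeodomains. Both genes of the first pair were lowest in E18.5 replicate 2, with log2 deviations of -1.60 for Irx6, on 15 counts, and -0.35 for Irx3. Irx1 and Irx4, both of the cluster on chromosome 13, gave an r of -0.58. In E16.5 replicate 2, Irx1 was 0.65 above and Irx4 0.44 below the mean of the 6 libraries on the log2 scale.

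**Figure D4:**
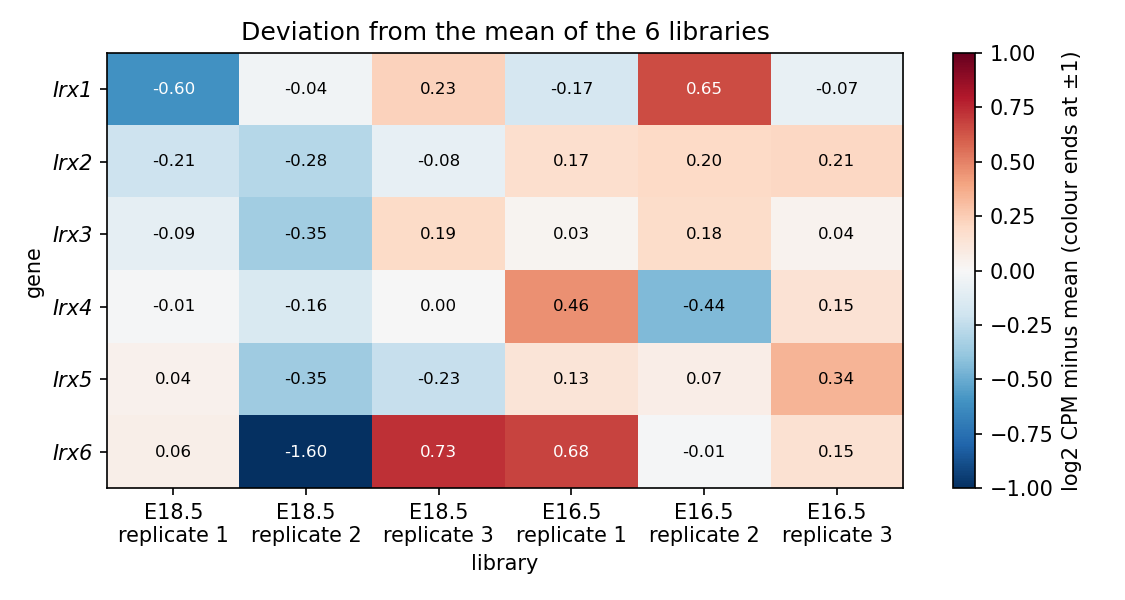
Deviation of log2 CPM from the mean of the 6 libraries for each Iroquois gene (rows) and library (columns, E18.5 then E16.5), with colour from blue (below) to red (above) that ends at 1 on either side. E16.5 replicate 2 holds the highest Irx1 value (0.65) and the lowest Irx4 value (-0.44). Irx2 is above its mean in the 3 E16.5 libraries and below it in the 3 E18.5 libraries. The Irx6 value of E18.5 replicate 2 (-1.60) is beyond the end of the colour scale.

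The genes whose pattern was most like a member's were read from 5399 or 5400 other genes with a mean FPKM of at least 5, by Pearson's r over the same 6 libraries. For Irx4 these were Nup93 (0.990), Fibp (0.990) and Krba1 (0.985), and 41 genes reached 0.95. For Irx2 they were Numa1 (0.990), Sh3pxd2a (0.984) and Hbb-y (0.982), and for Irx5 they were Rpl17-ps9 (0.998), Rpl15-ps3 (0.994) and Cks2 (0.975). For Irx1 they were Cdca8 (0.988), Abcc5 (0.978) and Trpc4ap (0.973). Irx3 was nearest to Zmat5 (0.969), Cdh2 (0.962) and Wbp2 (0.961). Irx6 had 0 genes at 0.95, and its nearest were L3hypdh (0.947), Hexim1 (0.939) and Shmt2 (0.927). The ribosomal pseudogenes share reads with near-identical copies, and their values are uncertain.

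Members of a cluster lie far apart, with 665 kb between Irx1 and Irx2, 626 kb between Irx2 and Irx4, 556 kb between Irx3 and Irx5 and 298 kb between Irx5 and Irx6 in the deposited table. Within 200 kb of a member lay 27 other genes, of which 20 were tested and 0 were called (edgeR). The long noncoding RNA gene Crnde begins 29 bases from Irx5 on the opposite strand. It stood at 20.7, 16.4 and 17.8 CPM in the E18.5 libraries and 32.1, 21.2 and 28.4 CPM in the E16.5 libraries. Its stages did not overlap in CPM or in FPKM, where it was at 3.96 ± 0.208 at E18.5 and 5.44 ± 0.0226 at E16.5 (SD, n = 3 each). The log2 change was -0.58 ± 0.18 (SE, edgeR; 95% interval -0.997 to -0.15; adjusted p = 0.376). The ratio of Irx5 to Crnde in FPKM was 2.12, 2.04 and 2.05 at E18.5 and 1.45, 2.10 and 1.89 at E16.5.

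Irx3os, which overlaps Irx3 on the other strand, stood at 3.38, 2.09 and 3.69 CPM in the E18.5 libraries and 4.59, 4.02 and 7.18 CPM in the E16.5 libraries, without overlap. Its log2 change was -0.79 ± 0.32 (SE, edgeR; adjusted p = 0.485). The libraries keep strand, but the sources used here do not say if the counting used it, so reads of Irx3 and Irx3os may not have been told apart. Irx3 was 6.68, 9.03 and 7.41 times as high as Irx3os in FPKM at E18.5 and 5.32, 6.78 and 3.41 times at E16.5.

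The coding neighbours with a mean FPKM of at least 1 had smaller log2 changes than Crnde and Irx3os. Fto, an RNA demethylase gene whose introns hold enhancers that act on Irx3, had a log2 change of 0.24 ± 0.26 (SE; adjusted p = 0.786, edgeR), which was 0.0158 without E16.5 replicate 1 and 0.57 without E16.5 replicate 2. Beside Irx4, the mitochondrial complex I gene Ndufs6 had 0.23 ± 0.13 (adjusted p = 0.598), the mitochondrial ribosome gene Mrpl36 had 0.07 and the lipid enzyme gene Lpcat1 had 0.07. The matrix protease gene Mmp2, beside Irx6, had -0.22 ± 0.21 (adjusted p = 0.762). Lpcat2, also beside Irx6 but at a mean of 0.803 FPKM, had -0.51 ± 0.35 (SE; adjusted p = 0.666, edgeR). The log2 changes of the remaining neighbours with a mean FPKM of at least 1 were 0.51 for Rpl9-ps4, 0.05 for Gapdh-ps16, -0.36 for Gm10263, -0.72 for Gm3235 and -0.19 for Gm45472. Of these, the first 3 are processed pseudogenes, whose reads can belong to near-identical copies.

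Other homeobox genes of the TALE class, the Meis, Pbx, Pknox and Tgif genes with Mkx, form the closest relatives of the family, and Meis and Pbx proteins pair on DNA. Of the 12 tested, 1 was called lower at E18.5, 0 were called higher, and 10 had a log2 change below 0, with a median of -0.28. Over all genes tested, 0.0551% were called lower and 50.2% had a log2 change below 0. Meis2 fell to 30.3, 29.9 and 31.1 CPM in the E18.5 libraries, against 57.5, 51.4 and 54.1 CPM in the E16.5 libraries (log2 change -0.84 ± 0.11, adjusted p = 0.0474, edgeR). Its adjusted p ran from 6.1e-06 (DESeq2) to 0.549 (limma on FPKM) over the alternatives. It did not pass without the filter, with the Xist class of the library, with the replicate block (adjusted p = 0.0581), on FPKM, or without any 1 library other than E16.5 replicate 2 (adjusted p of 0.152 to 0.314). Tgif1, a repressor, had 11.5, 9.77 and 11.8 CPM in the E18.5 libraries and 19.5, 16.7 and 17.96 CPM in the E16.5 libraries (adjusted p = 0.185). Pbx3 had 8.38 ± 0.333 CPM at E18.5 and 12.7 ± 0.706 CPM at E16.5 (SD, n = 3 each; adjusted p = 0.242 by edgeR).

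Among 19 transcription factors of chamber and conduction system identity, 0 were called (edgeR), and the median log2 change was -0.13. The 3 with an unadjusted p under 0.05 were all lower at E18.5, as were 4.7% of all genes tested. These were Gata5, Hey2, a repressor of atrial genes in the ventricle, and Nkx2-5, the early cardiac homeobox factor. Gata5 had 4.44 ± 1.25 CPM at E18.5 and 9.08 ± 2.58 CPM at E16.5 (adjusted p = 0.294, edgeR). Hey2 had 76.4 ± 8.77 CPM at E18.5 and 98.4 ± 8.74 CPM at E16.5 (adjusted p = 0.461, edgeR). Nkx2-5 had 124 ± 15.1 CPM at E18.5 and 163 ± 20.7 CPM at E16.5 (adjusted p = 0.471, edgeR).

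Among 14 genes reported to respond to Iroquois factors or to work with them in heart, the gap junction, potassium channel and natriuretic peptide genes among them, 0 were called. At an unadjusted p under 0.05, 3 were higher and 0 lower, beside 4.83% of all genes tested that were higher and 4.7% that were lower. The 3 were Nppa, Kcnip2 and Bmp10, and Kcnd2 was not among them. Of the 14, 8 had a log2 change above 0 and 6 below 0, and the median was 0.15 (edgeR). A link between these values and Irx5 was not tested. The atrial peptide gene Nppa had 2184, 2219 and 2284 CPM in the E18.5 libraries and 1124, 757 and 1229 CPM in the E16.5 libraries, without overlap (log2 change 1.10, adjusted p = 0.147). Kcnip2, the partner subunit of the channel that Irx5 controls, had 37.8, 28.4 and 47.7 CPM at E18.5 and 22.6, 17.3 and 18.3 CPM at E16.5 (log2 change 0.97, adjusted p = 0.185). Bmp10, a growth factor of trabecular and atrial muscle, had 65.4 ± 12.4 CPM at E18.5 and 35.6 ± 7.84 CPM at E16.5 (adjusted p = 0.212, edgeR).

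Marker sums, given here in CPM, did not overlap between stages for 4 of the cardiac cell type lists. The 9 atrial markers, which include Nppa, summed to 3672 to 4307 CPM at E18.5 and to 1894 to 2867 CPM at E16.5. Nppa alone was at 2184 to 2284 CPM at E18.5 and 757 to 1229 CPM at E16.5, so this sum is not separate from the Nppa values above. Of the 9, 6 had a log2 change above 0 and 3 below 0 (edgeR). The 8 epicardial markers summed to 213 to 275 CPM at E18.5 and to 161 to 174 CPM at E16.5. The 8 fibroblast markers summed to 3810 to 4987 CPM at E18.5 and to 2260 to 3575 CPM at E16.5, where their FPKM sums overlapped. The 8 smooth muscle and pericyte markers summed to 916 to 985 CPM at E18.5 and to 664 to 731 CPM at E16.5. The 8 ventricular markers overlapped, at 19220 to 23100 CPM at E18.5 and 20470 to 22790 CPM at E16.5, as did the 8 endothelial markers, at 468 to 556 CPM at E18.5 and 375 to 571 CPM at E16.5. The 12 conduction system markers, from cells in which Irx3 is also known to be expressed, summed to 388 to 482 CPM at E18.5 and to 334 to 499.7 CPM at E16.5, with Cntn2 between 0.0602 and 0.134 FPKM over the 6 libraries. The part of these cell types in the Iroquois values was not tested.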

How the data were processed

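Polyadenylated RNA of 6 mouse heart libraries was read as paired ends from strand-marked cDNA with UMI adapters, per the labels' protocols. The build mm9 and the tools HISAT2 2.0.4, StringTie 1.3.4d, cutadapt 1.9 and UMI-tools appear, with no roles, in the submitters' processing notes. The sources used here do not say if counting used UMIs or strand. Per gene, the authors deposited whole-number estimated counts and FPKM values for 31529 genes, per the file headers. Counts and FPKM held the same quantification, to within 1%, for 99.8% of the 11385 best covered genes (over 200 counts in each library).

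The deposited estimated counts were compared between stages with edgeR 4.0.16 in R 4.3.3 (quasi-likelihood test, two-sided, filterByExpr, TMM, stage as the only term), over 19959 genes that passed the filter, with Benjamini-Hochberg adjustment. The common biological coefficient of variation was 34.3%. SE was taken as the size of the log2 change over the root of F. Alternatives used DESeq2 1.42.0 and limma 3.58.1 on log2(FPKM + 1), and exact tests used scipy 1.17.1. The fits were tested on simulated data. The sources used here name no pairing of the libraries. Deviations of same-numbered libraries from their stage means correlated at 0.102, 0.185 and -0.0663, and those of differently numbered libraries at -0.262 to 0.164. With 3 libraries a stage, these values cannot decide whether the libraries were paired.

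The Iroquois genes and the gene lists were chosen with earlier results of these data known. Named genes beyond the 6 members are the 3 genes of smallest p in each of the lists of TALE relatives, chamber factors and response genes, any other gene called in those lists, the 3 of most like pattern for each member (leaving out predicted names), and neighbours within 200 kb with a mean FPKM of at least 1. Single markers are named where they bear on a member or are near 0, and 1 of them is not reported here. Sequences came from GENCODE M21 on GRCm38, and deposited coordinates served only for distances.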

Additional observations from a re-analysis of the deposited data

How the results depend on the processing

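No Iroquois gene passed the threshold under any of the 15 to 17 alternatives run for each. The lowest adjusted p of a member was 0.102, for Irx2 without E16.5 replicate 2, and its log2 change stayed between -0.44 and -0.25. Leaving out 1 library moved Irx1 between -0.484 and 0.0247, Irx3 between -0.30 and -0.03, Irx4 between -0.365 and 0.0526 and Irx6 between -0.89 and 0.13, and Irx4 was 0.0258 with the mitochondrial share as a covariate. The alternatives gave no value for Irx1 and Irx6 at 10 CPM in 3 libraries, nor for Irx6 at a mean FPKM of 0.5. The 30 genes called became 343 with DESeq2, 184 with the mitochondrial share, 14 with the Xist class (libraries above or below 100 CPM of Xist), 15 at 10 CPM, 43 with the replicate block, 10 with limma on log2(FPKM + 1), with and without the FPKM minimum, 18 with a pseudocount of 0.1, and 8 (without E16.5 replicate 3) to 371 (without E16.5 replicate 2) when 1 library was left out. The replicate block changed no call of a member (Irx2 adjusted p = 0.289). Xist, without TMM scaling, was at 9.08, 9.84 and 1301 CPM in E18.5 replicates 1, 2 and 3. It was at 11.8, 1167 and 1249 CPM in E16.5 replicates 1, 2 and 3. The Xist classes were thus unevenly split between the stages, and class and stage are partly confounded. Of the TALE relatives, 2 were called by DESeq2, 0 with no filter, the Xist class, the block and the 3 limma settings, and 0 to 1 without 1 library. DESeq2 called 1 chamber factor and 3 genes of the response list, while 1 of that list was called with the mitochondrial share and 0 to 1 without 1 library. Among neighbours, Mrpl36 was -0.0011 with the mitochondrial share and -0.10 to 0.28 without 1 library, Gm45472 was 0.18 with the Xist class, 0.016 at the pseudocount of 0.1 and -0.51 to 0.16 without 1 library, Lpcat1 ran from -0.0149 to 0.181, Mmp2 from -0.36 to 0.0748, Gapdh-ps16 from -0.0242 to 0.145, Fto from 0.0158 to 0.57, Rpl9-ps4 from 0.32 to 0.90, Gm3235 from -1.15 to -0.15 and Gm10263 from -0.60 to -0.11 without 1 library. The cause of these shifts was not tested. With 3 libraries a stage, Irx6 at 15 to 80 counts is the member most limited by depth.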

Other observations

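Some long noncoding RNA genes around the Iroquois genes were weakly transcribed, and those below were chosen after their values were seen. Of the 9 long noncoding RNA genes tested within 200 kb of a member, 9 had a log2 change below 0, beside 50.2% of all genes tested, and 5 had a mean FPKM under 1. The most abundant of them was Crnde, at a mean of 4.70 FPKM. Gm21817, 18374 bases from Irx5 on the opposite strand, differed by -1.90 ± 0.80 (log2 change, SE) at a mean of 0.121 FPKM, and edgeR gave it an adjusted p of 0.503. Gm20554, which begins 180 bases from Irx2 on the opposite strand, had -0.36 ± 0.82 at a mean of 0.107 FPKM, and Eprn, near Irx4, had -0.97 ± 0.58 at 0.468 FPKM. None of the 9 passed the threshold. Some of the 9 were near 0 for their SE, such as Gm36670 at -0.06 ± 0.80 and Gm45472 at -0.19 ± 0.37. Over all 20 tested neighbours, 13 had a log2 change below 0. Long noncoding RNA genes elsewhere were not counted.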
